A study of Mus musculus with 4 samples.

Results

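The 10 genes described here encode the actin, troponin, tropomyosin, tropomodulin and leiomodin proteins of the cardiac thin filament, and were taken as the rows of the deposited table whose gene name equals *Actc1*, *Acta1*, *Tnnt2*, *Tnni3*, *Tnni1*, *Tnnc1*, *Tpm1*, *Tmod1*, *Lmod2* or *Lmod3*. Each name had 1 row among the 55401 genes of the table, and all 10 matched the GENCODE annotation of mm10. RNA from heart tissue of mice aged 8 weeks was measured in 2 wild-type libraries and in 2 libraries from *Ctcf* heterozygous mice, which carry the CTCF-R567W substitution, made with CRISPR/Cas9, on 1 of their *Ctcf* alleles (*Ctcf* +/R567W). No cell-type-restricted driver is named, so the allele is not limited to cardiomyocytes, and the libraries hold poly(A) RNA of every cell type in the tissue. The labels number the libraries as replicates 1 and 2 of each genotype and give no litter, sex or pooling. The p-values below therefore rest on the spread between these libraries, which the fits (limma) estimate in part from other genes of like level. The comparison bears on contractile gene expression in an adult heart in which only a single *Ctcf* allele is mutated.

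In the sarcomere, thin filaments are polymers of alpha-actin, with a strand of tropomyosin and a troponin complex repeated along them. Calcium binding to troponin C moves troponin I and, through troponin T, tropomyosin, which opens the myosin-binding sites of actin and lets the myocyte contract. At the slow-growing pointed end of the filament tropomodulin caps the actin and leiomodins nucleate or lengthen it, so the balance of these proteins bears on filament length. The adult ventricle relies mainly on the cardiac actin *Actc1* and on cardiac troponin I, *Tnni3*, whereas *Acta1* and *Tnni1* are known as isoforms of skeletal muscle and of the immature heart.

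In heterozygous hearts the leiomodin mRNA *Lmod2* stood at 0.543 times its wild-type level, the lowest ratio of the 9 genes that could be tested. *Tpm1* stood at 0.714, *Actc1* at 0.723, *Lmod3* at 0.752 and *Tnnc1* at 0.785 of wild-type. The ratios are those of the fit described below, which adds 1 to each scaled value and so understates the change of low genes. For these 5 genes each heterozygous library was lower than either wild-type library, an order that 24.0% of all tested genes had. *Tnnt2*, *Tnni3*, *Acta1* and *Tmod1* overlapped between the genotypes. None of the 9 passed an adjusted p under 0.05 with a fold change over 1.5 (limma, Benjamini-Hochberg adjustment over all tested genes), a call that 0.0299% of the 10036 tested genes reached, and the smallest adjusted p was 0.261, for *Lmod2*.

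The values are TPM, a unit that divides by transcript length and fixes the sum of each library, so that levels of different genes can be compared. TPM keep no read depth, so the counting error of a value is unknown. Mitochondrially encoded genes (prefix mt-) held between 61.1% and 68.6% of the TPM. Gm-numbered genes, some of which are nuclear copies of mitochondrial genes, held 14.6% and 15.4% in wild-type hearts against 17.5% and 20.1% in heterozygous hearts (pairs of values are always given as replicate 1, then replicate 2). The 10 thin filament genes summed to 0.974% and 1.02% of all TPM in the wild-type libraries and to 0.541% and 0.735% in the heterozygous libraries. As a share of the TPM outside mt- and Gm-numbered genes they were closer, at 4.70% and 4.34% in wild-type and 3.89% and 4.25% in heterozygous libraries, and each heterozygous value still lay under each wild-type value. Libraries were therefore brought to a common scale with median-of-ratios factors, and the resulting values are called scaled TPM. Fold changes were fitted on log2(scaled TPM + 1), a scale that understates the change of low genes. The median tested gene had a log2 fold change of -0.01 after this scaling, of -0.35 when the TPM were left unscaled and of -0.31 when they were only recomputed without mt- genes.

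**Figure D1:**
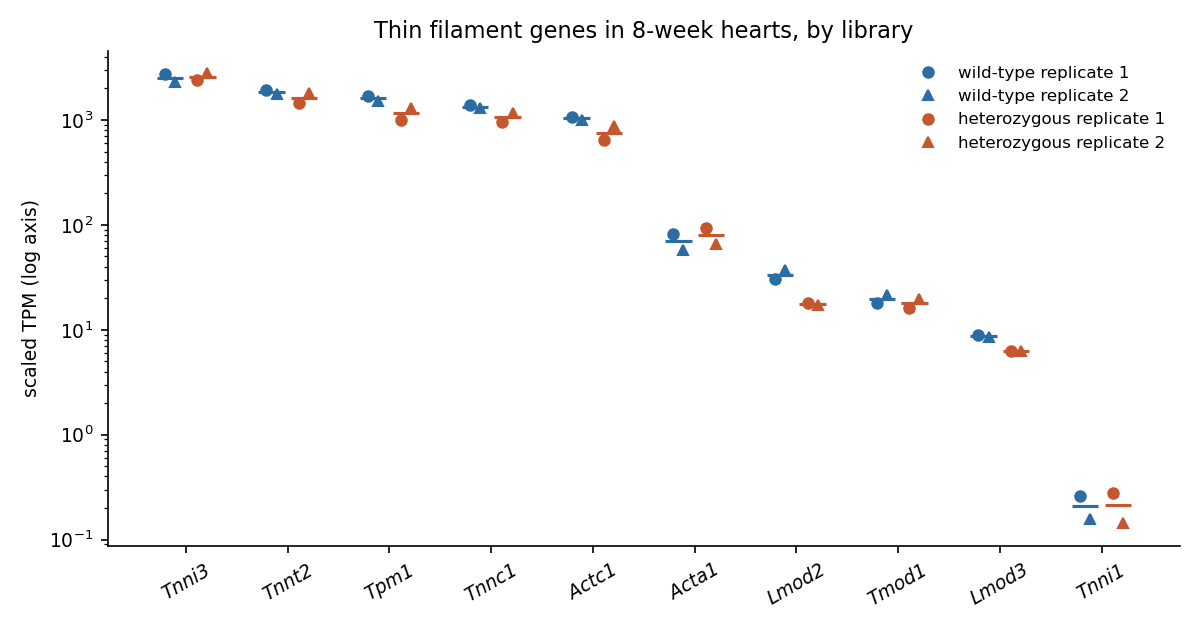
Scaled TPM of the 10 thin filament genes (log axis) in each of the 4 libraries, with circles for replicate 1, triangles for replicate 2 and lines for the genotype means, genes ordered by their wild-type mean. *Tnni3* is at the top (2326 to 2792) and *Tnni1* at the bottom (0.143 to 0.280), and the *Lmod2* points of the genotypes stand well apart (30.4 and 36.9 against 18.2 and 17.3).

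Among the tested thin filament genes 7 of 9 had a lower value in heterozygous hearts, where 51.6% of all tested genes did, and their median log2 fold change was -0.35. An unadjusted p under 0.05 with a lower value was reached by 2 of the 9, *Lmod2* and *Lmod3*, and by 6.08% of all tested genes. Both heterozygous libraries were under both wild-type libraries for 5 of the 9 and for 24.0% of all tested genes. With TPM as deposited this held for 8 of the 9, *Acta1* being the exception, but also for 67.8% of all tested genes. *Tnni1* was not tested, since its mean was under 1 TPM.

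The levels fell into 3 tiers. In wild-type hearts the order was *Tnni3*, *Tnnt2*, *Tpm1*, *Tnnc1* and *Actc1*, from 2538 ± 300 down to 1039 ± 49.4 scaled TPM (mean ± SD, n = 2), then *Acta1*, *Lmod2*, *Tmod1* and *Lmod3*, from 69.6 ± 17.0 down to 8.71 ± 0.344, and *Tnni1* at 0.208 ± 0.0713. Neighbours in this order did not overlap between the wild-type libraries. In heterozygous hearts 2 pairs of neighbours overlapped, *Tpm1* (1160 ± 212) with *Tnnc1* (1058 ± 151) and *Tmod1* (17.9 ± 2.34) with *Lmod2* (17.7 ± 0.603).

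*Actc1*, the cardiac alpha-actin (chromosome 2, 114047282 to 114053548, minus strand), had 1162 and 1272 TPM in the wild-type libraries and 529 and 796 TPM in the heterozygous libraries as deposited. After scaling these were 1073 and 1004 against 644 and 875, a log2 fold change of -0.47 (standard error 0.23, 95% interval -1.01 to 0.08, adjusted p = 0.441 from limma). The spread was wider in heterozygous (SD 163) than in wild-type hearts (SD 49.4), and the log2 fold change was -0.25 without heterozygous replicate 1 and -0.69 without heterozygous replicate 2. *Acta1*, the skeletal alpha-actin (chromosome 8, 123891769 to 123894751, minus strand), had 81.7 and 57.6 scaled TPM in wild-type and 94.0 and 65.6 in heterozygous hearts. Replicate 1 was the higher library in each genotype, and the genotypes overlapped (log2 fold change 0.19, 95% interval -0.42 to 0.81, adjusted p = 0.768), with a direction that turned to -0.24 when TPM were left unscaled and to -0.13 when mt- genes were removed.

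Within a library the isoforms can be compared without any scaling. *Acta1* made up 7.07% and 5.42% of the summed *Acta1* and *Actc1* TPM in wild-type hearts and 12.7% and 6.98% in heterozygous hearts. The means, 6.25% ± 1.16 and 9.86% ± 4.07 (SD, n = 2), differed by less than the spread of the heterozygous libraries (exact permutation test, two-sided, p = 0.667, where 0.333 is the smallest p that 2 libraries against 2 allow). The difference of 3.61 percentage points was 0.732 without heterozygous replicate 1 and 6.48 without heterozygous replicate 2. The mature mRNAs of these actins are alike, but no window of 75 bases of the longest *Actc1* transcript occurred in a transcript of another gene, and 0.437% of those of *Acta1* did.

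The promoters of both alpha-actin genes hold a CArG box, the binding motif of serum response factor, and are shown for that shared element. The stretches lie on chr2:114052888-114052962 and chr8:123894776-123894888 (GRCm38.p6, the assembly of mm10; minus strand, upstream of the RefSeq start and outside annotated exons). The *Actc1* stretch lies in the first intron of a GENCODE transcript that starts further upstream. Both, taken from RefSeq, are printed in gene direction with the CArG box and, in *Acta1*, a TATAAA in capitals.
Actc1: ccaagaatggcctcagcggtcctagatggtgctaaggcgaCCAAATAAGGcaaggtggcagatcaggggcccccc
Acta1: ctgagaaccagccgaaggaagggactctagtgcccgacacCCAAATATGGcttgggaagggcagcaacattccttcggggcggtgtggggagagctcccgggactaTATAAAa
Promoter windows of 300 bases were given for 9 of the 10 genes, all but *Lmod3*, and a CArG box, searched on both strands, was found in these 2 of the 9 and in 1.63% of all 32851 windows. TATAAA was found in the windows of the same 2 genes and in 13.6% of all windows. In *Actc1* it lies 33 bases past the RefSeq start, beyond the printed stretch. The letters CATTCC (the core of the MCAT element, both strands) were found in 5 of the 9 (*Acta1*, *Tmod1*, *Tnnc1*, *Tnnt2* and *Tpm1*) and in 14.7% of all windows. These are matches of letters in a window around the annotated start and not binding data. *Actc1* and *Acta1*, which share the CArG box, differed in the order of their libraries, *Actc1* without and *Acta1* with overlap between the genotypes.

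*Tnnt2*, which encodes the troponin T that ties the complex to tropomyosin (chromosome 1, 135836354 to 135852260), had 1936 and 1775 scaled TPM in wild-type and 1455 and 1820 in heterozygous hearts. Heterozygous replicate 2 lay between the wild-type libraries, and the log2 fold change was -0.19 (95% interval -0.71 to 0.33, adjusted p = 0.732). *Tnni3*, the inhibitory subunit of the cardiac complex (chromosome 7, 4518305 to 4524229), had 2750 and 2326 scaled TPM in wild-type and 2395 and 2792 in heterozygous hearts. The genotypes overlapped, with a log2 fold change of 0.03 (95% interval -0.49 to 0.55, adjusted p = 0.960) that became -0.41 for unscaled TPM and -0.29 after removal of mt- genes. *Tnnc1*, the calcium sensor (chromosome 14, 31208312 to 31211729), had 1397 and 1290 scaled TPM in wild-type and 951 and 1165 in heterozygous hearts, without overlap. Its log2 fold change was -0.35 (standard error 0.21, 95% interval -0.85 to 0.15, adjusted p = 0.513), or -0.20 without heterozygous replicate 1 and -0.50 without heterozygous replicate 2. The whole of *Tnnc1* lies within *Nisch* on the opposite strand, which had between 51.5 and 77.6 TPM, and the strandedness of the libraries is not given in the sources used here, so reads of the pair may not be told apart.

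*Tnni1*, the troponin I of slow skeletal muscle and of the fetal heart (chromosome 1, 135779434 to 135810989), was low, with 0.28 and 0.20 TPM in wild-type and 0.23 and 0.13 TPM in heterozygous hearts as deposited. Its share of the summed troponin I TPM was 0.00809% ± 0.00185 and 0.00841% ± 0.00466 (SD, n = 2), with overlap (exact permutation test, two-sided, p = 1). A difference in the fetal isoform was not detectable in these libraries, and the depth behind such low values is unknown.

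*Tpm1*, the striated muscle alpha-tropomyosin that covers the myosin-binding sites (chromosome 9, 67022590 to 67049406), had 1846 and 1930 TPM in wild-type and 828 and 1192 TPM in heterozygous hearts as deposited. The scaled values were 1705 and 1523 against 1009 and 1310, so the genotypes did not overlap. The log2 fold change was -0.49 (standard error 0.22, 95% interval -1.02 to 0.05, adjusted p = 0.427), or -0.30 without heterozygous replicate 1 and -0.67 without heterozygous replicate 2. As for *Actc1*, *Tnnt2* and *Tnnc1*, heterozygous replicate 1 was the lowest of the 4 libraries.

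Since *Tnni3* had the log2 fold change nearest 0 after scaling, the other abundant thin filament mRNAs were also set against it within each library, a measure chosen after these values were seen. *Tpm1* had 0.620 and 0.655 TPM per TPM of *Tnni3* in wild-type and 0.421 and 0.469 in heterozygous hearts, a mean of 0.637 ± 0.0244 against 0.445 ± 0.0337 (SD, n = 2). *Actc1* had 0.390 and 0.431 per *Tnni3* in wild-type and 0.269 and 0.313 in heterozygous hearts. *Tnnc1* had 0.508 and 0.554 against 0.397 and 0.417, and *Tnnt2*, with the smallest difference, 0.704 and 0.763 against 0.607 and 0.652. In each of these 4 ratios both heterozygous libraries were lower than both wild-type libraries, by a larger distance than the libraries of a genotype differed from each other, except for *Tnnt2*, where the gap between the genotypes was smaller than the distance between the wild-type libraries. *Tnni3* had the highest fold change of these 5 abundant genes, so its choice as denominator fixes the lower direction of the mean ratios, which restate the fold changes and are given without a test. The 4 ratios share the denominator and are not independent of each other.

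**Figure D2:**
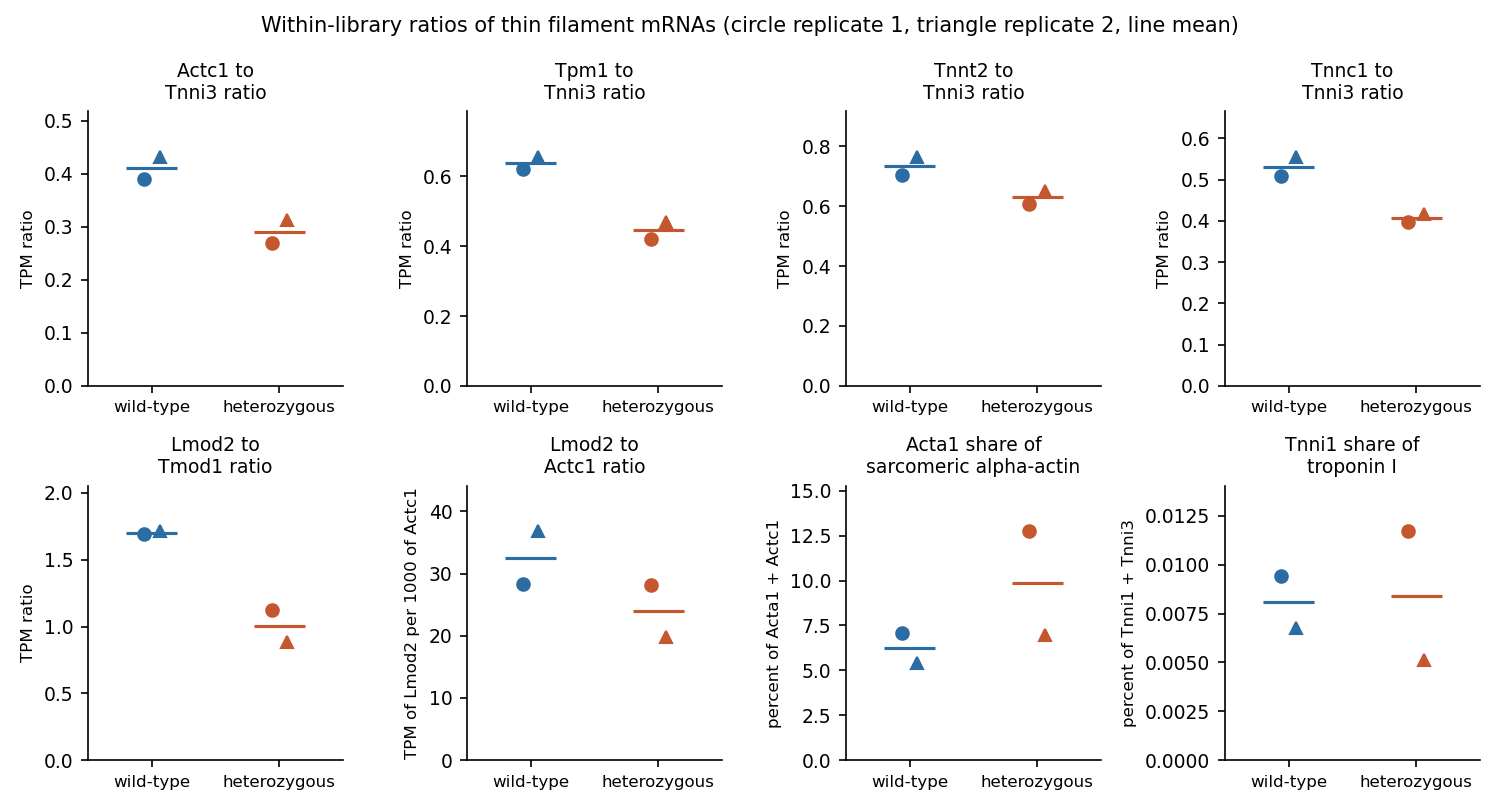
Within-library TPM ratios and isoform shares of thin filament mRNAs, each axis starting at 0, with a circle for replicate 1, a triangle for replicate 2 and a line for the genotype mean. The ratios of *Actc1*, *Tpm1*, *Tnnt2* and *Tnnc1* to *Tnni3* and of *Lmod2* to *Tmod1* are lower in both heterozygous libraries, *Lmod2* per 1000 *Actc1* is nearly level between the replicate 1 libraries (28.3 and 28.2), and the *Acta1* and *Tnni1* shares overlap.

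The pointed-end genes held the largest difference of the group. *Lmod2*, which encodes the leiomodin of the heart that lengthens thin filaments (chromosome 6, 24597762 to 24605414, plus strand), had 32.9 and 46.8 TPM in wild-type and 14.9 and 15.8 TPM in heterozygous hearts as deposited, or 30.4 and 36.9 against 18.2 and 17.3 scaled TPM. The heterozygous libraries were close to each other and both lay far under the wild-type libraries. The log2 fold change was -0.88 (standard error 0.17, 95% interval -1.29 to -0.47, unadjusted p = 0.00153, adjusted p = 0.261 from limma), and 0.777% of the tested genes had a lower value. Over the alternatives it ranged from -1.30 with unscaled TPM to -0.74 without wild-type replicate 2, and its adjusted p from 0.0612 with mt- genes removed to 0.985 without wild-type replicate 2. *Lmod3* (chromosome 6, 97238534 to 97252759, minus strand), a leiomodin best known from skeletal muscle, had 9.69 and 10.7 TPM in wild-type and 5.14 and 5.77 TPM in heterozygous hearts. Its scaled values were 8.95 and 8.47 against 6.26 and 6.34, with a tight spread in each genotype, a log2 fold change of -0.41 (standard error 0.14, 95% interval -0.74 to -0.08) and an adjusted p of 0.355. *Tmod1*, the capping protein (chromosome 4, 46038935 to 46116032, plus strand), had 18.0 and 21.6 scaled TPM in wild-type and 16.2 and 19.5 in heterozygous hearts, with overlap (log2 fold change -0.14, 95% interval -0.57 to 0.29, adjusted p = 0.762). Of the 75-base windows of its longest transcript 39.3% also occur, on either strand, in *Tstd2*, whose gene overlaps its end on the opposite strand and was listed at 6.3 to 7.38 TPM, and how reads were split there is uncertain.

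The promoter of *Lmod2* is shown because the study used it as a viewpoint for chromosome conformation capture (4C, not analysed here), and it belongs to the gene with the lowest ratio. The 241 bases at chr6:24597521-24597761 (GRCm38.p6, RefSeq, plus strand) end just before the annotated transcript start, and capitals mark the site of the 25-base biotin primer of the viewpoint, which matched on the reverse strand at positions -175 to -151 from the RefSeq start.
Lmod2: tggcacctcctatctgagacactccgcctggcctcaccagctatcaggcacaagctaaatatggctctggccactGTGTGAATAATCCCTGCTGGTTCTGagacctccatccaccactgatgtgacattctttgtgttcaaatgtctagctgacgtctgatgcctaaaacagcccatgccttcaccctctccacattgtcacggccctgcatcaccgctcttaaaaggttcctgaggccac
None of the letters searched (CArG box, MEF2 element, TATAAA and CATTCC) occurred in the *Lmod2* window, which says only that these letters are absent from it.

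Set against the capping protein in the same library, *Lmod2* had 1.69 and 1.71 TPM per TPM of *Tmod1* in wild-type hearts and 1.12 and 0.886 in heterozygous hearts. The means were 1.701 ± 0.0140 and 1.003 ± 0.165 (SD, n = 2), which differ by -0.77 on the log2 scale, without overlap between genotypes. The two-sided p of the exact permutation test was 0.333, its lower limit here. Thus the listed TPM of *Lmod2* exceeded that of *Tmod1* in both wild-type libraries and in heterozygous replicate 1, and was under it in heterozygous replicate 2. The level of *Tmod1* carries the uncertainty given above for sequence shared with *Tstd2*. Per 1000 TPM of *Actc1*, *Lmod2* had 28.3 and 36.8 TPM in wild-type and 28.2 and 19.8 TPM in heterozygous hearts. The genotypes touched without overlapping, and the replicate 1 libraries were nearly level. *Actc1* itself was lowest in heterozygous replicate 1. The log2 difference of -0.45 was -0.70 without heterozygous replicate 1, -0.26 without wild-type replicate 2 and -0.19 without heterozygous replicate 2.

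**Figure D3:**
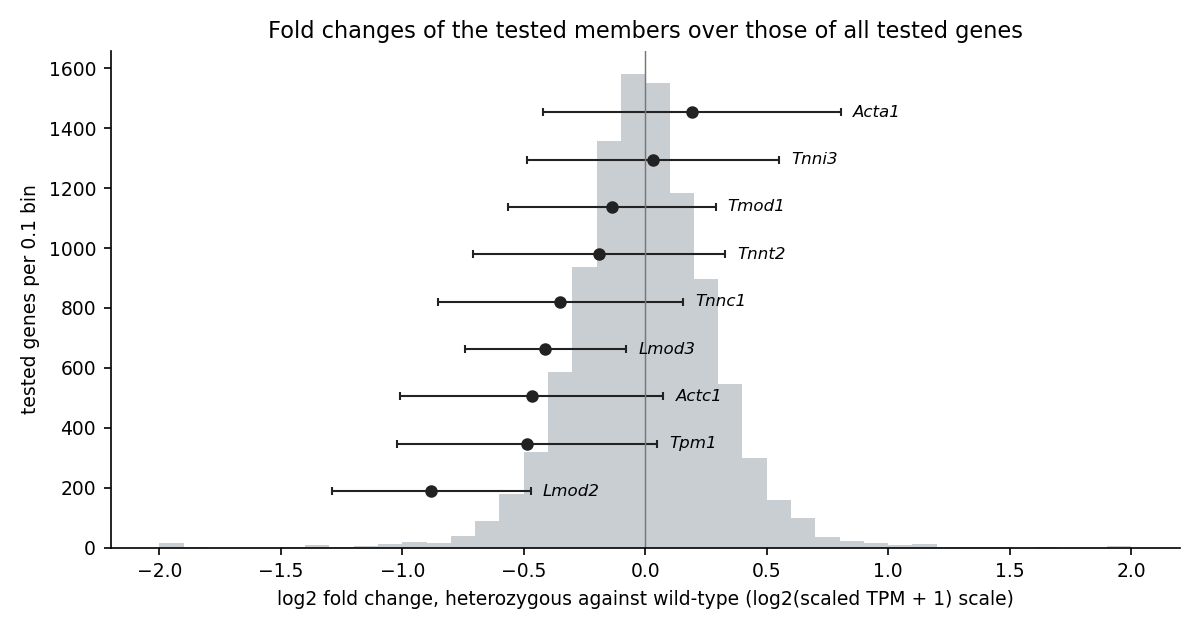
Log2 fold changes of the 9 tested thin filament genes (points, with 95% intervals from limma as bars, stacked for legibility) over a histogram of the log2 fold changes of all 10036 tested genes, in bins of 0.1 with values beyond 2 in either direction drawn in the end bins. The intervals of *Lmod2* and *Lmod3* leave out 0 before adjustment, and those of the other 7 genes include it.

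The thin filament genes were also set beside 8 other genes of the cardiomyocyte sarcomere and its calcium handling (*Actn2*, *Myh6*, *Ryr2*, *Pln*, *Ttn*, *Myl2*, *Myl3* and *Mybpc3*). The median log2 fold change of these 8 was -0.13, with 5 lower and 3 higher, between -0.48 (*Pln*) and 0.35 (*Mybpc3*), and 0 called. The median of the thin filament genes was lower than theirs by -0.22 on the log2 scale, a gap that was -0.024 without heterozygous replicate 1, -0.39 without heterozygous replicate 2 and 0.039 under quantile normalization. In 3 of the 8, *Pln*, *Myl3* (-0.44) and *Myl2* (-0.39), both heterozygous libraries were under both wild-type libraries. *Mybpc3* had the opposite order, and the other 4 overlapped. The values of these 3 were similar in size to those of *Tpm1* (-0.49), *Actc1* (-0.47) and *Tnnc1* (-0.35). When the libraries were scaled to the geometric mean of these 8 genes, *Lmod2* had a log2 fold change of -0.76, *Tpm1* of -0.36, *Actc1* of -0.34, *Lmod3* of -0.30 and *Tnnc1* of -0.22, while *Tnnt2* was at -0.06, *Tmod1* at -0.02, *Tnni3* at 0.16 and *Acta1* at 0.32. With a correction for GC content and transcript length, added after the values were seen, *Lmod2* stood at -0.84 and *Tnnc1*, whose longest transcript of 721 bases is the shortest of the 10, at -0.24.

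**Figure D4:**
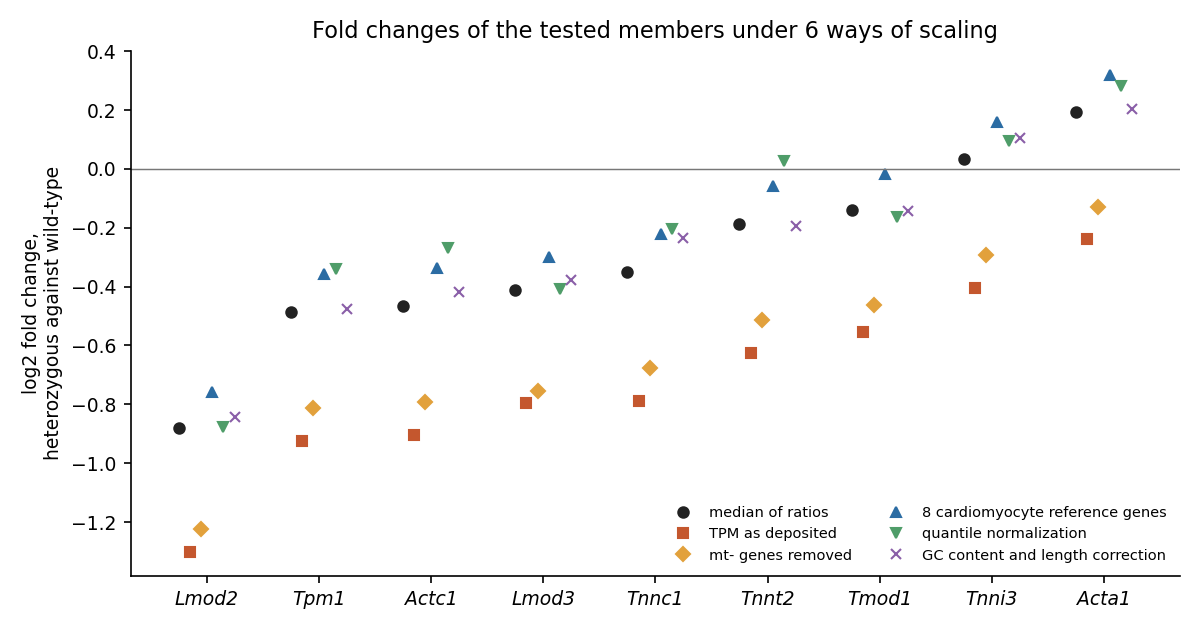
Log2 fold change of each tested thin filament gene (heterozygous against wild-type) under 6 ways of scaling or correcting the libraries. *Lmod2*, *Tpm1*, *Actc1*, *Lmod3*, *Tnnc1* and *Tmod1* are below 0 under each of the 6, *Acta1* and *Tnni3* are below 0 for unscaled TPM and after removal of mt- genes, and *Tnnt2* is above 0 under quantile normalization.

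Of 35 other genes of actin filaments in the table, 28 were tested. They were divided in direction, 18 lower and 10 higher, with a median log2 fold change of -0.06, and 0 were called (limma; smallest adjusted p 0.336). An unadjusted p under 0.05 was reached by 1 lower gene (*Klhl41*) and 1 higher gene (*Actg1*), where 6.08% and 6.22% of all tested genes were lower or higher at that p. Both heterozygous libraries were under both wild-type libraries for 11 and above them for 6, against 24.0% and 23.0% of all tested genes. *Klhl41*, whose product is known to stabilise nebulin in skeletal muscle, had 2.27 and 2.81 scaled TPM in wild-type and 1.55 and 1.72 in heterozygous hearts (log2 fold change -0.42, adjusted p = 0.360). *Actg1*, the cytoplasmic gamma-actin of non-muscle filaments, had 130.8 and 173.7 scaled TPM in wild-type and 352.6 and 226.0 in heterozygous hearts (log2 fold change 0.90, adjusted p = 0.336), so that it lay opposite in direction to *Actc1*. The actin of smooth muscle, *Acta2*, had 24.3 and 16.9 against 11.3 and 16.4 scaled TPM (log2 fold change -0.54, adjusted p = 0.416). All 7 genes for filament capping and severing were on the lower side, as were 51.6% of all tested genes, with a median of -0.23. Of the capping protein subunits *Capza2* (-0.31) and *Capzb* (-0.35) did not overlap between genotypes, and *Capza1* (-0.04) did. After scaling all 3 other tropomyosins were on the higher side, as were 4859 of the 10036 tested genes, with a median of 0.21. This was opposite to *Tpm1*, but *Tpm2* overlapped between genotypes. The direction depended on the scaling, since their mean TPM as deposited were lower in heterozygous hearts. Wild-type and heterozygous means were 14.2 and 11.8 for *Tpm2*, 21.6 and 18.6 for *Tpm3*, and 18.2 and 15.7 for *Tpm4*. *Tmod3* (-0.11) and *Nebl* (-0.06), the cardiac nebulin-like gene, were near 0.

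**Figure D5:**
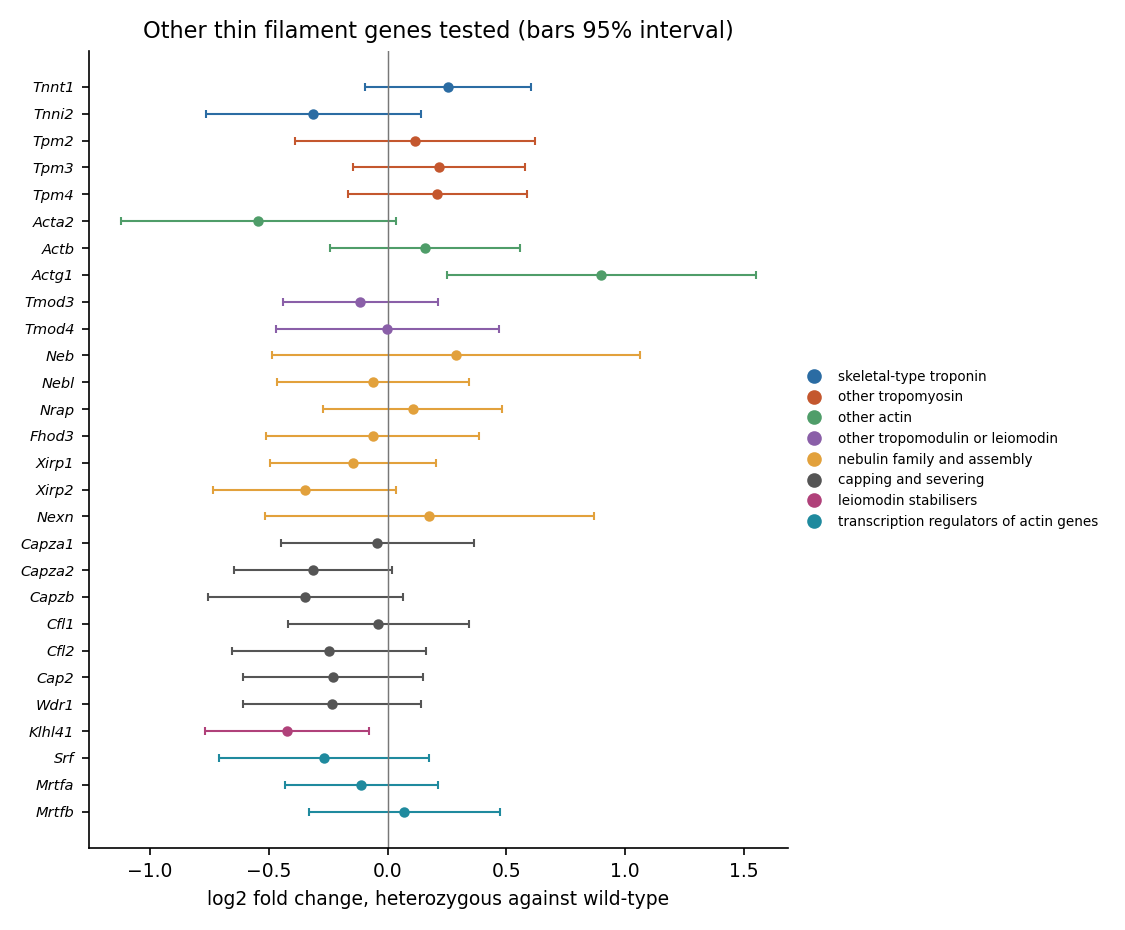
Log2 fold changes with 95% intervals (limma) of the 28 other actin filament genes tested, coloured by role. The role drawn for *Klhl41*, leiomodin stabilisers, is only a list name, since its product is known to stabilise nebulin. The intervals of *Actg1* and *Klhl41* leave out 0 before adjustment, the 7 capping and severing genes lie below 0 and *Tpm2*, *Tpm3* and *Tpm4* above it.

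Markers of other cell types were read in the same libraries, and in bulk heart RNA fewer cells of a type and less RNA per cell cannot be told apart. Of the skeletal muscle markers *Myh1*, *Myh2* and *Myh4* were listed at 0 in each library, and all 8 summed to between 4.17 and 5.38 scaled TPM. The 5 atrial markers summed to 815 and 2356 scaled TPM in wild-type and to 1923 and 3276 in heterozygous hearts. All 5 had a higher fitted value in heterozygous hearts, as did 4859 of the 10036 tested genes. Their median log2 fold change was 0.82 (smallest adjusted p 0.480 from limma), and all 5 overlapped between genotypes. Their sum was also higher in replicate 2 of each genotype, the libraries in which *Acta1* was lower. The 4 smooth muscle markers, which include *Acta2*, summed to 38.0 and 31.1 against 21.8 and 31.3. The 4 endothelial markers summed to 54.7 and 56.3 against 51.2 and 51.7, the 5 fibroblast markers to 54.6 and 77.0 against 51.8 and 55.0, and the 4 macrophage markers to between 12.4 and 17.9. The 5 erythroid markers stood at 2104 in heterozygous replicate 2 and between 934 and 981 in the other libraries. The 8 cardiomyocyte genes summed to 19930 and 18796 in wild-type and to 16244 and 19096 in heterozygous hearts, lowest in heterozygous replicate 1, the library in which *Actc1*, *Tpm1*, *Tnnt2* and *Tnnc1* were also lowest. The part of these differences in the values of the thin filament genes was not tested.

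Taking the 2 nearest tested protein-coding genes on each side, 36 genes other than the 10 themselves adjoined them (genes that overlap one of the 10 included), of which 17 were lower, with a median log2 fold change of 0.04. Both heterozygous libraries were under both wild-type libraries for 9 of these neighbours and above them for 10, shares close to the 24.0% and 23.0% of all tested genes. Beside *Lmod2*, *Asb15*, 24.6 kb away, had a log2 fold change of -0.28 (adjusted p = 0.459 from limma) without overlap between genotypes, *Ndufa5* of -0.00 and *Wasl*, 8.39 kb away, of 0.10, both with overlap, and *Pot1a*, 1138 kb away, of 0.46 (adjusted p = 0.366) with both heterozygous libraries above the wild-type libraries. All 4 had a higher log2 fold change than *Lmod2*, which says little of the locus, since only 0.777% of all tested genes were lower than *Lmod2*. Of the 4 only *Asb15* had the same order of libraries, as did 24.0% of all tested genes. *Tnni1* and *Tnnt2* lie next to each other on chromosome 1, 25.4 kb apart, and were the lowest and the highest but one of the 10 in level, respectively.

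The tested genes whose pattern over the 4 libraries was most like that of *Lmod2*, by the Euclidean distance of log2 values centred on their mean, were *Scgb1c1* (distance 0.04), the noncoding *Gm50321* (0.10), *Retreg1* (0.16), *Aga* (0.17) and *Hrc* (0.17). *Hrc*, a calcium-binding protein gene of the sarcoplasmic reticulum, had 119.5 and 140.2 scaled TPM in wild-type and 69.9 and 77.6 in heterozygous hearts. Of the other thin filament genes *Lmod3* was the nearest, at a distance of 0.53, but only at rank 420 among all tested genes. *Acta1* was the farthest, at 1.24 and rank 8777. A likeness over 4 libraries is a description only.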

How the data were processed

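Gene expression of 4 heart libraries, 2 wild-type and 2 heterozygous, was analysed. The authors deposited TPM per gene, rounded to 2 decimals, after trimming with Trim Galore, alignment to mm10 with STAR and quantification with RSEM, as the methods and the submitters' processing notes state; the annotation release is not given in the sources used here. TPM keep no depth, so no count test could be made and no counting interval is given. Here, median-of-ratios factors from genes above 0 in every library put the 4 libraries on a common scale, and log2(scaled TPM + 1) of the 10036 genes with a mean of at least 1 TPM was fitted with limma (3.58.1; lmFit, eBayes with trend, two-sided, Benjamini-Hochberg adjustment) in R (4.3.3), with a call needing both an adjusted p below 0.05 and a change of over 1.5-fold. Shares and ratios were compared with exact permutation tests in Python with scipy (1.17.1). Positions are those of GENCODE vM21 (mm10), to which 55141 identifiers matched, and promoters those of RefSeq. The fit was tested on simulated data.

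By rule, the text names the 10 thin filament genes, the other actin filament genes with an unadjusted p under 0.05 plus *Acta2*, *Nebl* and *Tmod3*, the 4 nearest neighbours of *Lmod2* and the 5 genes most like it. *Capza2*, *Capzb* and the other tropomyosins were named after their values were seen. The genes and lists were chosen with earlier results of these data known. Alternatives were pseudocounts of 0.1 and 5, other filters on low values, TPM as deposited, removal of mt- genes or of mt- and Gm-numbered genes, TMM factors computed on TPM, quantile normalization, scaling to 8 cardiomyocyte genes, other variance models and thresholds, the replicate number as a block, and each library left out. Correcting for GC content and transcript length by loess was an alternative added after the values were seen.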

Additional observations from a re-analysis of the deposited data

How the results depend on the processing

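No thin filament gene was called under any of the 21 alternatives. *Actc1*, *Tnnc1*, *Tpm1*, *Tmod1*, *Lmod2* and *Lmod3* kept a lower value in heterozygous hearts under each alternative fit. The log2 fold change of *Acta1* turned to -0.24 for unscaled TPM and -0.13 after removal of mt- genes, and ran from -0.063 to 0.45 with 1 library left out. That of *Tnni3* turned to -0.41 and -0.29 under the same 2 scalings and ran from -0.089 to 0.15 with 1 library left out, and that of *Tnnt2* turned to 0.025 under quantile normalization. The gap of the medians to the 8 cardiomyocyte genes turned to 0.039 under quantile normalization and ran from -0.39 to -0.024 with 1 library left out. The difference in the *Tnni1* share ran from -0.00298 to 0.00360 percentage points with 1 library left out, and was 0.0116 with 1 TPM added to each gene.

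Among all tested genes 3 were called, 0 without a filter on low values, 13 for unscaled TPM, 14 after removal of mt- genes, 5 with the cardiomyocyte scaling, 5 with robust eBayes, and from 4 to 15 with 1 library left out. A replicate block gave 11 calls, and 5 came with the block and the correction for GC content and length together. The labels give same-numbered libraries only a number in common, and whether they share more is not known. The correlation of their deviations was 0.101, over 2 pairs. *Lmod2* had an adjusted p of 0.156 with the block. With 1 library of a genotype left out, the lone library is assumed to vary like the others. The cause of these changes was not tested.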
